A study of Mus musculus with 6 samples.

Results

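Collagens, laminins and integrins were described in a mouse beta-cell line in which a microRNA had been raised and in pancreatic islets in which it had been deleted. The genes were chosen by symbol, as every array probe set whose only gene symbol is that of a collagen chain (Col followed by a number, a and a number), a laminin chain (Lama, Lamb or Lamc) or an integrin chain (Itga or Itgb). The pattern took 80 of the 18194 genes with a named probe set, which were covered by 165 of 34958 probe sets. They comprised 42 collagen chains, 10 laminin chains, 25 integrin chains and 3 genes that encode no chain of these families, Itgb1bp1, Itgb1bp2 and Itgb3bp, whose products bear the name of an integrin tail they bind. Where a gene had several probe sets, the brightest across the 6 arrays stood for it.

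Affymetrix arrays had been hybridised with MIN6 RNA (4 arrays) and with islet RNA (2 arrays). MIN6 is a line of beta cells from the mouse. The MIN6 cells had been infected for 48 h with adenovirus at a multiplicity of infection of 250, and kept in 2% serum and 4.5 g/l glucose. The vector carried green fluorescent protein in the control (AdGFP, 1 array), miR-7a2 (AdmiR7a, 2 arrays) or miR-7b (AdmiR7b, 1 array). All MIN6 cells thus carried an adenovirus. The labels do not say whether the 2 AdmiR7a arrays came from separate cultures. The islets were from C57BL/6 mice whose beta cells lacked miR-7a2 through the Lox/Cre system (KO) and from wild-type animals (WT), with 1 array for each genotype. The Cre driver, the age of the mice and the number of animals behind each islet array are not given in the sources used here. By this design the other cells of KO islets would keep the gene, which was not measured on these arrays. The insulin gene Ins2 stood at 15.76 (log2) on AdGFP, 15.82 in KO and 15.83 in WT islets, whereas Pecam1, an endothelial gene, stood at 2.17 on AdGFP, 5.19 in KO and 6.30 in WT islets.

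Collagens, laminins and integrins are the fibres, the sheets and the anchors of the extracellular matrix. Collagen chains assemble in triple helices, some in fibrils and some, such as type IV collagen, in the network of basement membranes. A laminin is a trimer of an alpha, a beta and a gamma chain and forms the other network of that sheet. Integrins are pairs of an alpha and a beta chain in the plasma membrane that bind these proteins outside the cell and the actin cytoskeleton inside it. Mouse beta cells lie against the basement membrane of the islet capillaries, which is largely made by the endothelial cells, and read it through integrins that contain the beta1 chain.

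The 2 microRNAs are shown because the arrays with either of them were pooled below. A microRNA recognises its targets mainly through its seed, bases 2 to 8, which are printed in capitals. The mature sequences, from RefSeq (GRCm38.p6), read 5′ to 3′:
miR-7a-5p: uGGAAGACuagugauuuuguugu
miR-7b-5p: uGGAAGACuugugauuuuguuguu
The seeds are the same. Outside the seed the 2 sequences differ by A10U, counted from 1 at the 5′ end of miR-7a-5p, and miR-7b-5p is 1 base longer. The sequence of miR-7a-5p lies at 2 loci, of which Mir7-2 (chr7:78888295-78888317, plus strand) is miR-7a2, the gene deleted in the islets. Mature miR-7 was not measured on these arrays.

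Most of the chains were not detected. The values are log2 probe set intensities, and the lowest value on every array was 2.17, which 28.2% to 29.7% of all probe sets shared. A level of 4 was used as the limit of background. Of the 80 genes, 49 stayed below 4 on every array (61.2%, against 37.8% of all genes). These 49 included the fibrillar collagen genes Col1a1 (2.18 on each array) and Col1a2 (2.17 in MIN6, 3.14 in KO and 3.80 in WT islets), the kidney and lung basement membrane chains Col4a3 to Col4a6, and Col6a1 and Col6a2. Also below 4 throughout were Lama1, Lama2, Lama3, Lamb3 and Lamc3 among the laminins, and Itga1, Itga2, Itga5, Itgam, Itgb3, Itgb4, Itgb6 and Itgb7 among the integrins. Each MIN6 array held 21 or 22 genes at 4 or more and the islet arrays 28 (KO) and 27 (WT). By their means, 20 genes reached 4 in both systems, 2 in MIN6 only (Col22a1 and Col7a1), 8 in islets only and 50 in neither.

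**Figure D1:**
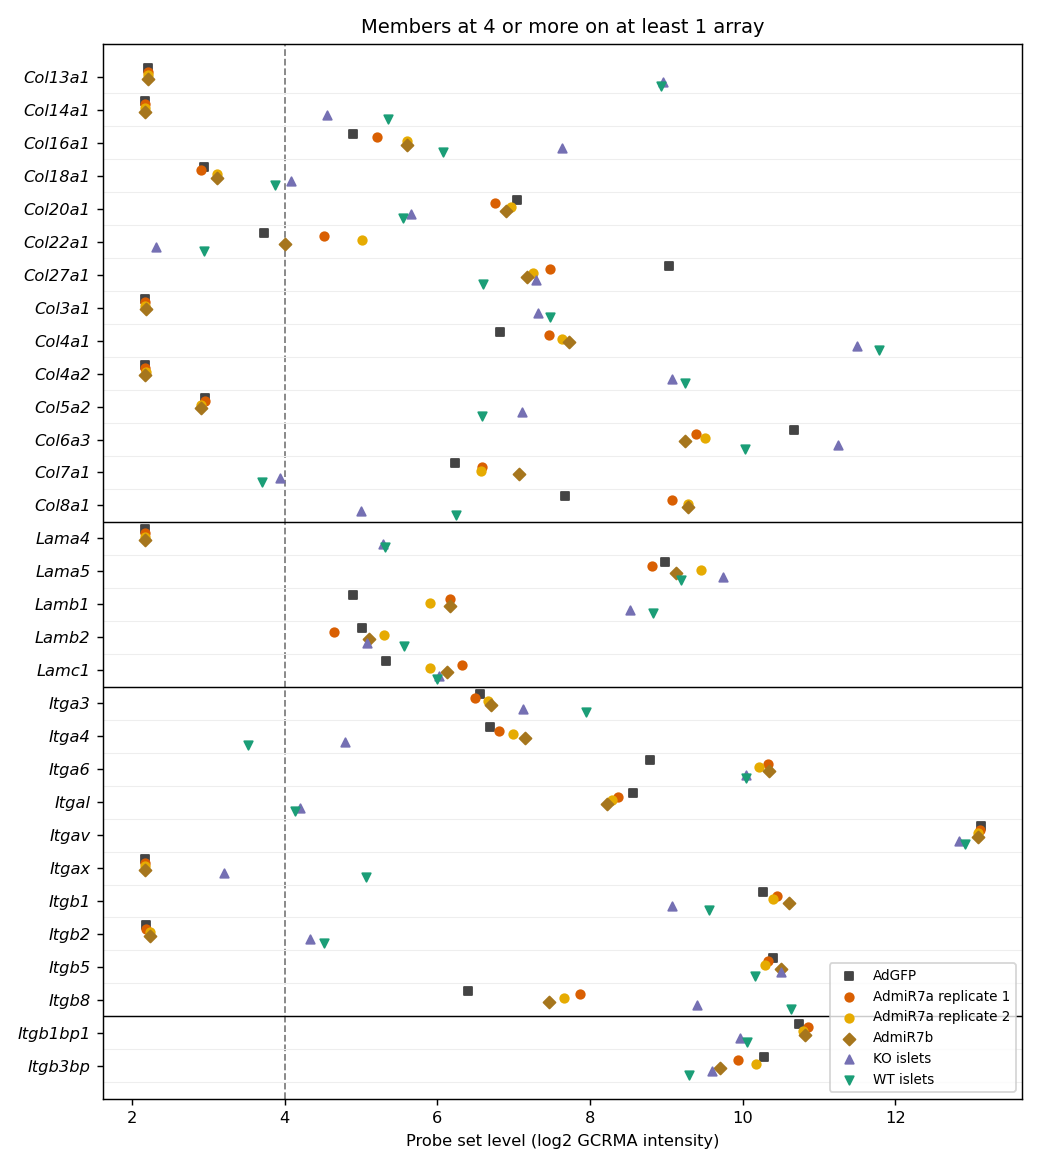
Level (log2 GCRMA intensity, horizontal axis) of the 31 genes that reached 4 on at least 1 array, 1 row per gene and 1 symbol per array, with collagens, laminins, integrins and the other genes separated by lines and the background limit of 4 dashed. Col13a1, Col3a1, Col4a2 and Lama4 stand near 2.2 on all 4 MIN6 arrays and above 5 in both islet arrays, whereas Itgal stands above 8 in MIN6 and near 4 in islets.

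The 20 genes measured in both systems included 6 collagens, which were Col16a1, Col20a1, Col27a1, Col4a1, Col6a3 and Col8a1. Among the alpha chains these were Itga3, Itga4, Itga6, Itgal and Itgav, and among the beta chains Itgb1, Itgb5 and Itgb8. Itgb1 pairs with Itga3 and Itga6 in laminin receptors and with Itga4 in a receptor for fibronectin and VCAM1, whereas Itgav pairs with Itgb5 or Itgb8 in receptors for vitronectin and latent TGF-beta. Among the laminin chains they were Lama5, Lamb1, Lamb2 and Lamc1, which combine in laminins with an alpha5, a beta1 or beta2 and a gamma1 chain. Itga6 can also pair with Itgb4, but Itgb4 stood at 2.17 on all 6 arrays.

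The MIN6 arrays ask how the matrix genes of a beta cell respond to added miR-7. With the 3 miR-7 arrays pooled against AdGFP, 5 of the 22 genes that reached a MIN6 mean of 4 rose and 2 fell. A laminin receptor chain (Itga6), a TGF-beta activating chain (Itgb8), a laminin chain (Lamb1) and 2 network collagen chains (Col8a1 and Col4a1) rose, by 0.79 to 1.54 (log2). Col27a1 and Col6a3 fell by 1.73 and fell by 1.30. The threshold was a limma two-sided p of 0.05 after Benjamini-Hochberg adjustment across 10367 genes. By this rule 14.0% of all genes tested rose and 12.1% fell, against 22.7% and 9.09% of these 22, so the shares were not far from those of all genes. The other 58 genes did not reach a mean of 4 and were not tested. The median difference was 0.18 over the 22 genes and 0.06 over all genes tested.

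Among the integrins, Itga6 encodes the alpha chain of a laminin receptor. It stood at 8.79 on AdGFP, 10.34 and 10.21 on the AdmiR7a arrays and 10.35 on AdmiR7b. All 3 miR-7 arrays were higher than AdGFP and lay close together, a rise of 1.51 ± 0.09 (log2, SE, 3 arrays against 1) or 2.85-fold (limma adjusted p = 0.0108). Itgb8, whose product pairs with the Itgav chain and activates latent TGF-beta, stood at 6.40 on AdGFP, 7.87 and 7.66 on AdmiR7a and 7.47 on AdmiR7b. It rose by 1.26 ± 0.18, 2.40-fold (adjusted p = 0.0209), with every miR-7 array above AdGFP. The partners of these chains did not pass the test. Itgb1 stood at 10.27 on AdGFP and 10.49 on average with miR-7 (difference 0.21 ± 0.11, adjusted p = 0.231), and Itgav at 13.12 and 13.09 (difference -0.02 ± 0.07, adjusted p = 0.820). Itga3 (0.06), Itgb5 (-0.02), Itga4 (0.29) and Itgal (-0.27) did not pass either, with adjusted p of 0.724, 0.906, 0.232 and 0.100.

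Among the laminins, Lamb1 encodes the beta chain of most basement membrane laminins. It stood at 4.90 on AdGFP, 6.17 and 5.90 on AdmiR7a and 6.17 on AdmiR7b, and rose by 1.18 ± 0.14, 2.27-fold (limma adjusted p = 0.0178). The AdGFP value lies within 1 log2 unit of the background limit. The gamma chain gene Lamc1 went from 5.33 on AdGFP to 6.33, 5.90 and 6.13, a difference of 0.79 ± 0.19 that missed the threshold (adjusted p = 0.0528) although all 3 miR-7 arrays were higher. With quantile normalization of the 4 MIN6 arrays or with a gene's probe sets averaged, Lamc1 passed (adjusted p = 0.0223 and 0.0210). It did not pass with no filter on level, with a trend or with the probe set chosen per system. Nor did it pass when any of the miR-7 arrays was left out. The alpha chain gene Lama5 (8.99 on AdGFP, then 8.82, 9.45 and 9.13, a difference of 0.15 ± 0.27) and the beta chain gene Lamb2 (0.01 ± 0.28) varied more between the miR-7 arrays than they differed from AdGFP.

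Among the collagens, Col8a1 encodes a short-chain network collagen found under endothelia and in injured vessels. It stood at 7.67 on AdGFP, 9.07 and 9.28 on AdmiR7a and 9.29 on AdmiR7b, and rose by 1.54 ± 0.12, 2.91-fold (limma adjusted p = 0.0126). Col4a1, a chain of the basement membrane network, stood at 6.82 on AdGFP, 7.47 and 7.64 on AdmiR7a and 7.72 on AdmiR7b, and rose by 0.79 ± 0.13, 1.73-fold (adjusted p = 0.0250). As with Itga6 and Itgb8, the miR-7 arrays lay above the 1 AdGFP array, which adds little to a call made on these same arrays. Col27a1, a fibrillar collagen best known from cartilage, went the other way, from 9.04 on AdGFP to 7.48, 7.26 and 7.18, and fell by 1.73 ± 0.14, 3.33-fold (adjusted p = 0.0126). Col6a3, a chain of the beaded filaments of type VI collagen, stood at 10.68 on AdGFP and at 9.39, 9.51 and 9.24 with miR-7, and fell by 1.30 ± 0.13, 2.46-fold (adjusted p = 0.0138). For both of these genes the AdGFP array was higher than every miR-7 array, which likewise adds little to the call. Col16a1 (0.58, adjusted p = 0.109), Col7a1 (0.51, adjusted p = 0.194), Col22a1 (0.79, adjusted p = 0.230) and Col20a1 (-0.17, adjusted p = 0.318) did not pass. Of the genes that encode no chain, Itgb1bp1 stood at 10.74 on AdGFP and at 10.86, 10.79 and 10.82 with miR-7 (0.09, adjusted p = 0.426), and Itgb3bp at 10.28 and at 9.94, 10.18 and 9.70 (-0.34, adjusted p = 0.289).

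**Figure D2:**
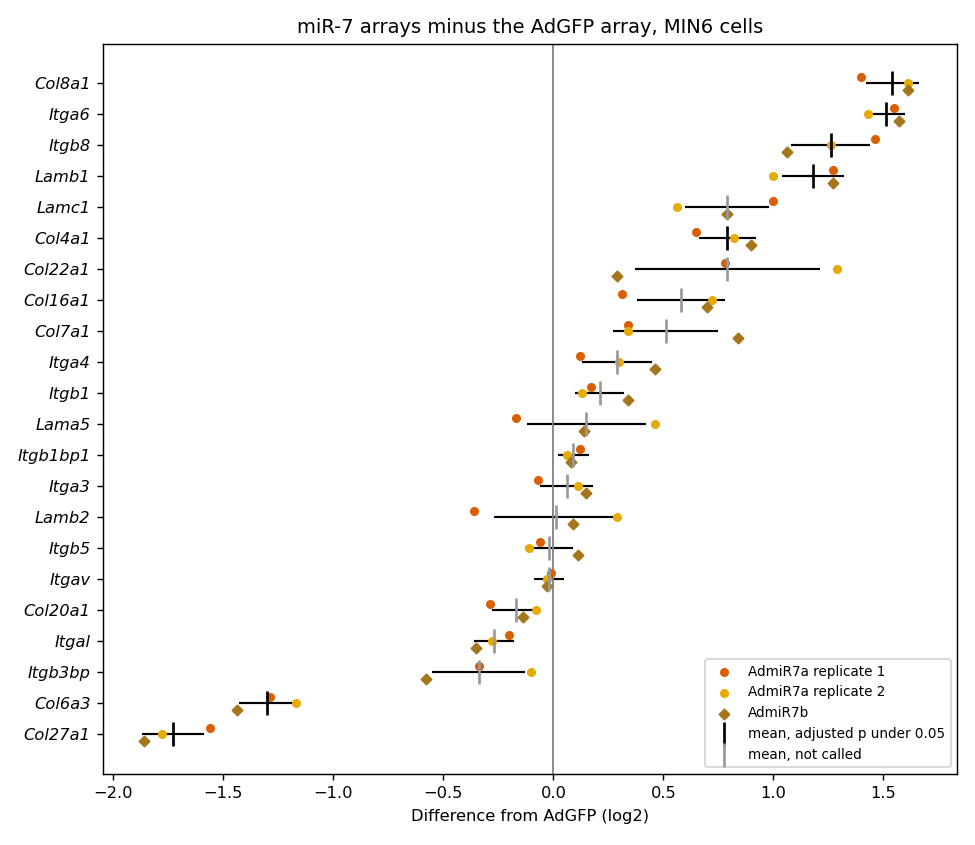
Difference of each miR-7 array from the AdGFP array (log2, horizontal axis) for the 22 genes tested in MIN6, with the mean of the 3 arrays as a vertical tick and its limma SE as a line. The points of Col8a1, Itga6, Itgb8 and Lamb1 all lie at 1.0 or more and those of Col27a1 and Col6a3 all below -1.1, whereas the AdmiR7a points of Lama5 and Lamb2 lie on both sides of 0.

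Further probe sets of the same genes gave a second reading on the same arrays. A MIN6 mean of 4 or more was reached by 17 other probe sets of 12 genes, and 13 of them differed from AdGFP in the same direction as the probe set used. The second probe set of Itga6 differed by 1.52 and that of Col8a1 by 1.40, close to the 1.51 and 1.54 of the sets used. Col27a1 was lower by more on its second probe set (-2.14), and Col4a1 (0.88) and Lamc1 (0.77) were much the same. Lamb1 differed by only 0.45 on its second probe set, which read 3.90 on AdGFP. Itgb3bp had other probe sets on both sides of 0 (-0.27 and 0.71). Itgb8 and Col6a3 had 1 probe set each.

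**Figure D3:**
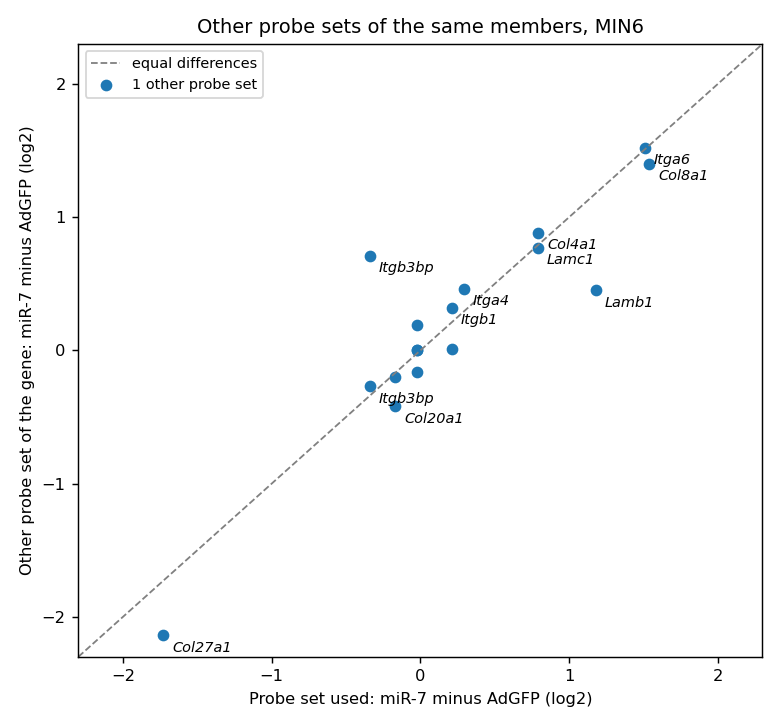
miR-7 minus AdGFP (log2) on the probe set used (horizontal axis) and on each of the 17 other probe sets of the same genes with a MIN6 mean of 4 or more (vertical axis), with the line of equal differences dashed. Itga6, Col8a1, Col4a1 and Lamc1 lie near the line, Lamb1 below it, and 1 probe set of Itgb3bp has the opposite sign.

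The AdmiR7a arrays on their own asked the same question for the vector that had 2 arrays. Limma called 0 of the 22 genes, as it called 0 of all genes tested (0%), while 9 of the 22 had p under 0.05 unadjusted and the smallest adjusted p was 0.0666. For the 7 genes called with the pooled arrays the AdmiR7a means differed by nearly the same amounts, from -1.67 for Col27a1 to 1.5 for Col8a1. The AdmiR7a arrays are part of the pooled group that selected these 7 genes, with the same AdGFP array. Similar amounts are therefore no separate evidence. With AdmiR7b, 4 genes were at least 1 (log2) above AdGFP and 2 at least 1 below it, against 3.82% and 4.36% of all genes tested. The 4 were Col8a1 (1.61), Itga6 (1.57), Lamb1 (1.27) and Itgb8 (1.06), and the 2 were Col27a1 (-1.86) and Col6a3 (-1.44). AdmiR7b and AdmiR7a share the AdGFP array, so these values are given side by side and not as a replication. Between the vectors limma called 0 of the 22 genes and 0 of all genes (0%), with p under 0.05 unadjusted for 1 of the 22, Col7a1, which was 0.49 ± 0.07 higher with AdmiR7b (unadjusted p = 0.00867, adjusted p = 0.739).

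All MIN6 differences rest on the same AdGFP array, which differed from the miR-7 arrays by an SD of 0.511 to 0.578 across genes, while the miR-7 arrays differed among themselves by 0.196 to 0.216. Dropping any of the 3 miR-7 arrays (AdmiR7a replicate 1 or 2, or AdmiR7b) left 0 of the 7 calls, with 1 residual degree of freedom and adjusted p of the 7 genes from 0.0650 to 0.0981, and without the filter on level Itga6 was the only one of the 7 that was called (adjusted p of the other 6 from 0.0581 to 0.127).

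Lists of genes that make, bind and read the matrix were set beside the chains, against the 14.0% of all genes that rose and the 12.1% that fell with miR-7. Among 12 measured genes of collagen folding and crosslinking, 3 rose and 3 fell (median difference 0.00). The prolyl 3-hydroxylase genes P3h1 and P3h2, which modify collagen chains, rose by 1.33 ± 0.14 and 1.05 ± 0.09, and the lysyl hydroxylase gene Plod2 rose by 0.46 ± 0.10 (limma adjusted p = 0.0147, 0.0128 and 0.0396). Ppib, the cyclophilin that works in a complex with P3h1, fell by 1.63 ± 0.14, Plod3 fell by 0.82 ± 0.09 and the procollagen protease gene Bmp1 fell by 0.66 ± 0.10 (adjusted p = 0.0128, 0.0164 and 0.0248). The remaining gene of that complex, Crtap, differed by 0.01 (adjusted p = 0.955).

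Of 18 measured genes of the integrin adhesion machinery, which joins the beta tails to actin, 1 rose and 4 fell, to be read against the same 14.0% and 12.1%. The integrin-linked kinase gene Ilk rose by 0.68 ± 0.08, whereas the tensin gene Tns3 fell by 1.40 ± 0.14, the vinculin gene Vcl fell by 1.01 ± 0.07, the filamin gene Flna fell by 0.67 ± 0.15 and the parvin gene Parva fell by 0.39 ± 0.08 (adjusted p from 0.0119 to 0.0453). The talin gene Tln1 (0.28, adjusted p = 0.0984) and the kindlin gene Fermt2 (0.30, adjusted p = 0.0501) did not pass. Of 9 other measured matrix receptors, the syndecan gene Sdc4 rose, from 3.59 on AdGFP, below the background limit, to 6.28, 6.33 and 6.55, and so reached the filter through the miR-7 arrays (adjusted p = 0.0103). In the same list the hyaluronan receptor gene Cd44 fell by 1.27 ± 0.24 (adjusted p = 0.0330). Of 4 measured matrix partners only the calcium-binding matrix protein gene Smoc1 passed, and fell by 0.55 ± 0.13 (adjusted p = 0.0478), and the 1 measured protease inhibitor gene, Timp2, stood at 0.50 (adjusted p = 0.0778). Medians of the 3 lists with over 4 measured genes were 0.00 for folding, 0.10 for the adhesion machinery and 0.24 for the receptors. Of the 9 endothelial markers listed, the 2 that reached a MIN6 mean of 4, Plvap and Esam, passed the test (adjusted p = 0.0147 and 0.0159). Esam rose by 0.79, and Plvap went from 3.50 on AdGFP, below the background limit, to between 4.28 and 4.42, and so reached the filter through the miR-7 arrays, while Pecam1, Cdh5 and Emcn stayed near 2.2 on every MIN6 array. The mean level of the list was 2.97 on AdGFP and 3.15 to 3.19 with miR-7, and its part in the matrix results was not tested.

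The islet arrays hold the reverse manipulation, loss of miR-7a2 from beta cells. With 1 array per genotype there was no replicate and no test, and genes are named by a log2 difference of at least 1. Of the 28 genes with an islet mean of 4 or more, 3 were higher and 3 lower in KO by that size, that is 10.7% in each direction, against 1.61% and 1.23% of 10553 genes. Itga4, among the higher, and Itgax, among the lower, reached the mean of 4 only through the array where they were higher. With a mean level of at least 6, 2 of 19 were higher and 1 lower, against 103 and 52 of 9164 genes. The median difference was -0.05 over the 28 and -0.02 over all genes.

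The 3 higher genes were Col16a1, Itga4 and Col6a3. Col16a1, a minor collagen that sits on fibrils, stood at 7.64 in KO and 6.08 in WT islets, 2.95-fold higher. Col6a3 stood at 11.25 and 10.03, 2.33-fold higher. Itga4, a receptor chain of leukocytes, stood at 4.79 in KO and 3.52 in WT, so its WT value was below the background limit. The 3 lower genes were Itgb8, Col8a1 and Itgax. Itgb8 stood at 9.40 in KO and 10.64 in WT islets and Col8a1 at 5.0 and 6.24, each 2.36-fold lower by the unrounded values. Itgax, a chain of macrophages and dendritic cells, stood at 3.21 in KO and 5.07 in WT, so that its KO value was at background.

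A middle group differed by less than 1 but by more than 0.5. Itga3, a laminin receptor chain, was at 7.13 in KO and 7.95 in WT (-0.82), Col14a1 at 4.56 and 5.36 (-0.80), Col27a1 at 7.29 and 6.60 (0.69), Lama5 at 9.75 and 9.20 (0.55) and Col5a2 at 7.11 and 6.58 (0.52). The other genes lay between -0.49 and 0.35. Of the basement membrane chains beside Lama5, Lamb2 was at -0.49, Lamb1 at -0.31, Col4a1 at -0.29, Col4a2 at -0.16, Lama4 at -0.02 and Lamc1 at 0.02. Itga6 was at 0.01 and Itgav at -0.08. For Itgb1 KO minus WT was -0.48, and -0.78 on a second probe set.

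**Figure D4:**
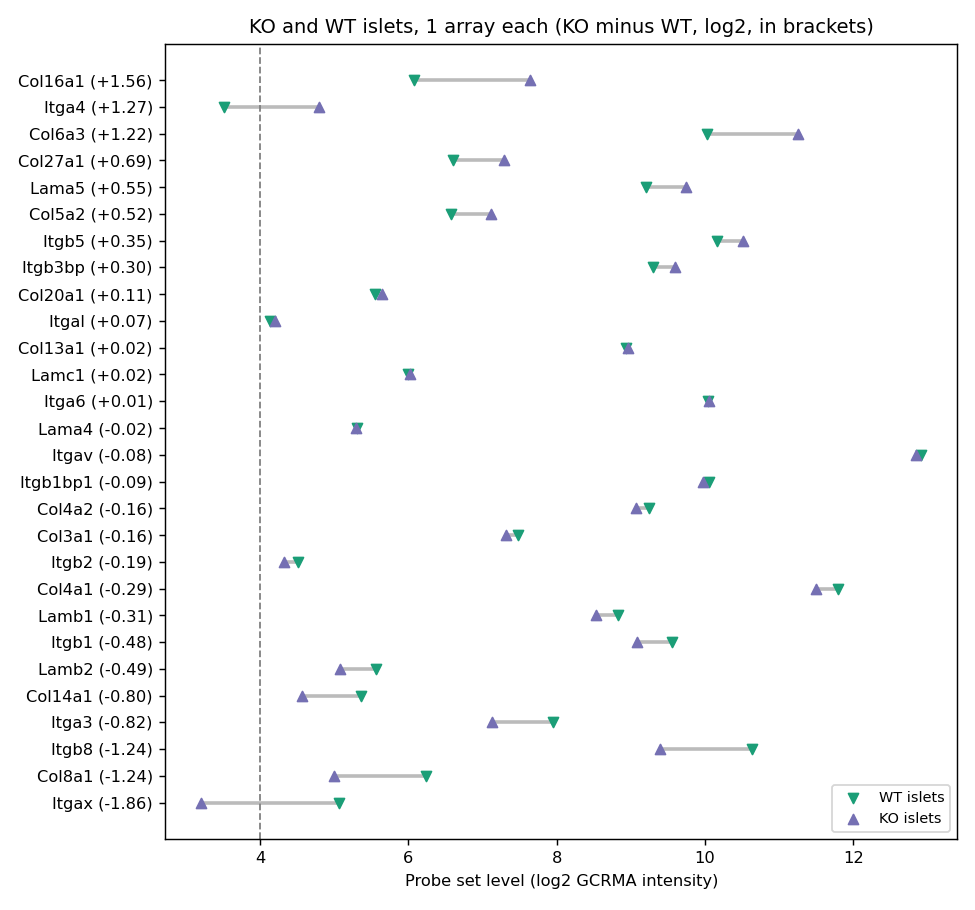
Level (log2 GCRMA intensity, horizontal axis) in KO islets and WT islets, 1 array each, for the 28 genes with an islet mean of 4 or more, ordered by KO minus WT, which stands in brackets after each gene. The differences run from -1.86 for Itgax to 1.56 for Col16a1, and the values of Itga4 in WT and Itgax in KO lie below the dashed background limit of 4.

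Second probe sets bore on some of these values. Col27a1 differed by 1.12 on its second probe set, with the WT value of 3.81 below the background limit, and Col4a1 by -0.98, with 7.36 in KO and 8.35 in WT. The second probe set of Col8a1 read 2.37 in KO and 2.29 in WT and so did not measure the gene there. The markers of other islet cells differed in part. Of 7 endothelial genes measured in islets only Pecam1 was at least 1 lower in KO (-1.11). Esam (-0.48), Tek (-0.43), Emcn (-0.25) and Plvap (-0.20) were lower by less, and Cdh5 (0.14) and Kdr (0.02) were not lower. The mean level of the list was 6.72 in KO and 7.07 in WT. The immune list stood at 6.5 and 6.37, with the shared leukocyte gene Ptprc at 7.74 and 7.57, and the stellate and fibroblast list at 4.46 and 4.53, with Pdgfrb at 9.07 and 9.44. The defining markers Pdgfra, Acta2, Lum and Dcn were below 4 in both. The part of other cells in the islet differences was not tested. In whole islets, fewer cells of a type and less RNA per cell cannot be told apart.

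Other matrix genes in islets differed by the size of 1 in a few cases. Of all genes measured there, 1.61% were higher and 1.23% lower in KO by that size. Of 9 matrix partners 1 passed that size. It was Postn, a matrix protein of fibroblasts that binds integrins, at 4.77 in KO and 6.03 in WT (-1.25). The nidogen genes Nid1 (-0.06) and Nid2 (0.00), which bridge laminin and type IV collagen, hardly differed. Of 19 genes of the adhesion machinery 1 passed a size of 1, namely Lims1. This adaptor gene, whose product is in a complex with Ilk and parvin, stood at 9.05 in KO and 7.49 in WT (1.55). Of 10 folding and crosslinking genes, 3 proteases and inhibitors and 9 other receptors, 0 passed that size, and Ppib was at 0.94. These counts leave out genes with an islet mean under 4, among them 3 that differed by 1 or more. The collagenase gene Mmp13 was at 5.43 in KO and 2.19 in WT, the tenascin gene Tnc at 2.63 and 4.06, and the protease inhibitor gene Timp1 at 2.34 and 3.70, so each was below the background limit on at least 1 array.

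Genes called with miR-7 in MIN6 could be set beside the islets, since the 2 comparisons share no array. All 7 called genes were measured in islets, and 6 of them differed there in the opposite direction (85.7%), against 1743 of 2529 genes called in MIN6 and measured in islets (68.9%). An opposite difference of at least 1 was seen for Col6a3, Itgb8 and Col8a1, that is for 3 of the 7 (42.9%), against 2.37% of the 2529 genes. Col6a3 fell by 1.30 with miR-7 and was 1.22 higher in KO. Itgb8 rose by 1.26 and was 1.24 lower in KO (-1.24), and Col8a1 rose by 1.54 and was also 1.24 lower (-1.24). Each of these 3 genes rests on 1 probe set in islets. Col6a3 and Itgb8 have only 1. The second of Col8a1 read 2.37 in KO and 2.29 in WT, below the background limit. Col27a1, Col4a1 and Lamb1 had opposite signs with smaller islet differences, and Itga6 was at 0.01 in islets. Among the genes not called in MIN6, Col16a1 and Itga4 were higher both with miR-7 and in KO. These genes were selected with the values known, the islet side has no replicate, and no test was made.

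**Figure D5:**
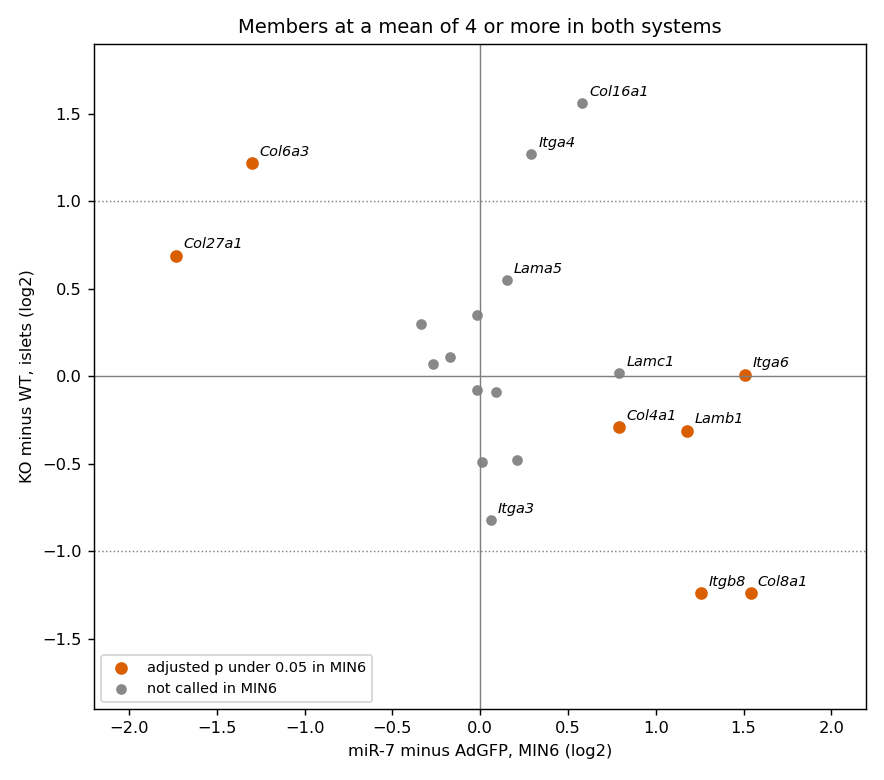
Difference of the miR-7 arrays from AdGFP in MIN6 (log2, horizontal axis) and of KO from WT islets (log2, vertical axis) for the 20 genes with a mean of 4 or more in both systems, with genes called in MIN6 in orange and islet differences of 1 dotted. Col6a3 and Col27a1 lie at the upper left, Itgb8 and Col8a1 at the lower right, and Itga6 and Lamc1 on the horizontal line.

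Setting islets against the cell line asks where the chains are expressed. Of all 80 genes, 12 were higher in the 2 islet arrays and 7 in the 4 MIN6 arrays, that is 15.0% and 8.75%, against 13.1% and 11.5% of all 18194 genes. A call here needed both a limma adjusted p under 0.05 and a size of 1 or more (log2), and all levels were tested. Vector and genotype differences counted towards the means of the systems and towards the spread. The 12 comprised 7 collagen chains, 2 laminin chains and 3 integrin chains, and the 7 comprised 4 collagen and 3 integrin chains. In a fit limited to genes with a mean of at least 4 in either system, 12 of 30 were higher in islets and 7 in MIN6. Among all genes that fit called 2407 higher in islets and 2170 higher in MIN6, of 11155. A gene high in 1 system can reach that filter through that system alone. Line and tissue differ in every handling step, so system and batch cannot be told apart.

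Of the basement membrane chains, Col4a1, Col4a2, Lama4 and Lamb1 were higher in islets, whereas Lama5, Lamb2 and Lamc1 did not pass. Col4a1 was at 11.50 and 11.79 in islets and at 6.82 to 7.72 in MIN6, 18.9-fold higher in islets (4.24 ± 0.31, limma adjusted p = 7.68e-04). Col4a2, its partner in the trimer, was at 9.07 and 9.24 in islets and at 2.17 or 2.18 on every MIN6 array, at least 35.6-fold higher against the limit of 4 (adjusted p = 6.5e-07). At the lowest value the MIN6 arrays can hardly vary, so the p-value of such a gene does not measure their spread. Lama4, the laminin alpha chain of endothelia, was at 5.29 and 5.31 against 2.17 in MIN6, at least 2.46-fold higher. Lamb1 was at 8.53 and 8.83 in islets and at 4.90 to 6.17 in MIN6, 7.43-fold higher (limma adjusted p = 0.00775). With the WT array left out it did not pass (difference 2.74). For WT against AdGFP alone the difference was 3.93, against 2.89 over all arrays. In the same lists the basement membrane linker Nid1 was at 8.15 and 8.21 in islets and 2.18 on average in MIN6, and the collagen chaperone gene Serpinh1 at 8.62 and 8.92 against 2.51.

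Col4a1 and Col4a2 are neighbours read in opposite directions from a shared control region, so the promoter windows are shown beside their levels. Windows of 300 bases, 250 before and 50 after the start site, are given 5′ to 3′ on each gene's own strand, from RefSeq (GRCm38.p6), with CCAAT and the GC box GGGCGG on either strand in capitals.
Col4a1 (chr8:11312777-11313076, minus strand): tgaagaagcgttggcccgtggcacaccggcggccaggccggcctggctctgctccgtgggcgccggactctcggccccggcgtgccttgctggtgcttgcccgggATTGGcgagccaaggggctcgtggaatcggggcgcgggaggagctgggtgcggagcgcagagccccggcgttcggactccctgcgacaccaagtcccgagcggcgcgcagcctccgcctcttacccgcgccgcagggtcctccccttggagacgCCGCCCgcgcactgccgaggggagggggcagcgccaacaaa
Col4a2 (chr8:11312555-11312854, plus strand): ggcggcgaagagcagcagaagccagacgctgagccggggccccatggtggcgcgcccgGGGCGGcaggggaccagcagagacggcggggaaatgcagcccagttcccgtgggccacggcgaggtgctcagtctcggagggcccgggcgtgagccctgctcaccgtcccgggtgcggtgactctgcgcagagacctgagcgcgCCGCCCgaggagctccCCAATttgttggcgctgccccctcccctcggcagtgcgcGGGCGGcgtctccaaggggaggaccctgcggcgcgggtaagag
The windows share 78 bases and the annotated start sites lie 21 bases apart. The Col4a1 window held 1 CCAAT and 1 GC box and the Col4a2 window 1 CCAAT and 3 GC boxes, and the TATA sequence TATAAA occurred 0 times in either. Within a window the matches did not overlap. The GC box of Col4a1 and the Col4a2 GC box after its start site are the same site in the shared bases, read on opposite strands. On either strand, 37.4% of 32841 promoter windows of that length held CCAAT, 35.7% the GC box and 13.6% the TATA sequence. A window was found for 58 of the 80 genes. In islets both genes were well above background, whereas in MIN6 Col4a1 was measured on 2 probe sets and the only probe set of Col4a2 stayed at the lowest value, also on the miR-7 arrays on which Col4a1 rose.

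Col13a1, Col3a1, Col5a2, Col14a1 and Col1a2 were also called higher in islets, whereas Col6a3 and Col27a1 did not pass and Col1a1 was at 2.18 throughout. Col13a1, a transmembrane collagen of cell contacts, was at 8.96 and 8.93 in islets and 2.21 in MIN6, at least 30.8-fold higher. Col3a1, a chain of thin fibrils made by fibroblasts, was at 7.32 and 7.48 against 2.17 to 2.19, at least 10.5-fold higher, and Col5a2 at 7.11 and 6.58 against 2.91 to 2.96, at least 7.19-fold higher. A second probe set of Col3a1 and of Col5a2 stayed below 3 in islets. Col14a1 was at 4.56 and 5.36 in islets and 2.17 in MIN6. Col1a2 passed the test as well, but at 3.14 and 3.80 in islets it was below the background limit, and it was under the size of 1 without the WT array (0.97) and with probe sets averaged (0.80). These chains came with markers of other cells: the endothelial list had 7 of 9 genes at an islet mean of 4 or more and a mean level of 6.72 and 7.07 in islets against 2.97 to 3.19 in MIN6, the immune list 5 of 7 and 6.5 and 6.37 against 2.21 to 2.22, and the stellate and fibroblast list 3 of 10 and 4.46 and 4.53 against 2.29 to 2.39. Of the acinar list 1 of 5 and of the Schwann list 0 of 2 reached 4 in islets. Their part in the higher islet levels was not tested.

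The integrins divided between the systems. Itgb8 was at 9.40 and 10.64 in islets and 6.40 to 7.87 in MIN6, 6.38-fold higher in islets (adjusted p = 0.0247). When AdmiR7a replicate 1 or 2 or AdmiR7b was left out it did not pass (limma adjusted p from 0.0508 to 0.0686). It did not pass without WT either (difference 2.05). For WT against AdGFP alone the difference was 4.24, against 2.67 over all arrays. The leukocyte chains Itgb2 (4.33 and 4.51 in islets, 2.18 to 2.24 in MIN6) and Itgax (3.21 and 5.07, 2.17 in MIN6) were higher in islets, the latter with an adjusted p of 0.0478 that rose to between 0.0992 and 0.118 when a MIN6 array was left out. Itgal, whose product pairs with the Itgb2 chain on leukocytes, went the other way. It was at 8.57, 8.37, 8.29 and 8.22 in MIN6 and at 4.20 and 4.13 in islets, 18.4-fold higher in MIN6 (adjusted p = 3.39e-05), although in MIN6 its partner Itgb2 and the leukocyte gene Ptprc (2.17) were at background level. The other Itgal probe set read 2.17 on all 6 arrays, so the level rests on 1 probe set.

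Itga4 was at 6.69 to 7.15 in MIN6 and 4.79 and 3.52 in islets, 6.73-fold higher in MIN6 (adjusted p = 0.00656), and its partner chain Itgb1 at 10.27 to 10.61 against 9.08 and 9.56, 2.16-fold higher (adjusted p = 0.00814). Both fell under the size of 1 with a gene's probe sets averaged (-0.98 for Itga4 and -0.58 for Itgb1, islets minus MIN6), as Itgb1 did without the KO array (-0.87) and for WT against AdGFP alone (-0.71). The second Itgb1 probe set put the difference at -2.02 (islets minus MIN6) and another at -0.31. Itga6, Itgb5 and Itgav differed by 0.12, -0.04 and -0.22 between the systems, with 10.40, 10.33, 10.29 and 10.50 for Itgb5 in MIN6 and 10.51 and 10.16 in islets. For Itga6 this holds for the mean of the MIN6 arrays only, since AdGFP stood at 8.79 and the islets and miR-7 arrays at 10.04 to 10.35. For Itgav another probe set was lower in islets (-2.07), so the level depends on the probe set. Itga3 was 0.93 higher in islets, under the size of 1 (adjusted p = 0.0446).

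The collagens higher in MIN6 were Col8a1, Col7a1, Col20a1 and Col22a1. Col8a1 was at 7.67 to 9.29 in MIN6 and at 5.0 and 6.24 in islets, 9.24-fold higher in MIN6 (limma adjusted p = 0.0201). It did not pass when any of the miR-7 arrays was left out (adjusted p from 0.0606 to 0.0644) or without the KO array (difference -2.59). For WT against AdGFP alone, without the miR-7 and KO arrays, the difference was -1.43, against -3.21 over all arrays (islets minus MIN6). Col7a1, the anchoring fibril collagen of skin, was at 6.23 to 7.07 against 3.94 and 3.70, at least 6.11-fold higher (adjusted p = 0.00161). Col20a1 was at 6.76 to 7.05 against 5.65 and 5.55 (-1.32, islets minus MIN6), which was -0.86 with probe sets averaged and did not pass with a mean for each group (adjusted p = 0.0604), with another probe set at -1.34 and another at -0.79. Col22a1 was at 3.73 to 5.02 against 2.32 and 2.95, close to background in both, and did not pass when any array other than AdGFP was left out (adjusted p from 0.0617 to 0.209). Col18a1, a basement membrane collagen, was at 2.91 to 3.11 in MIN6 and at 4.08 and 3.87 in islets, around the background limit. Its other probe set was at 2.17 to 2.81 in MIN6 and at 4.52 and 4.97 in islets (2.12, islets minus MIN6), above that limit in both islet arrays. Lama5, Lamb2 and Lamc1 differed by 0.38, 0.31 and 0.09 and did not pass, but the second probe set of Lamc1 was lower in islets (-2.37, from 3.73 and 2.52 there). Enzymes that finish collagen chains were also higher in MIN6: Plod2 stood at 10.10 on average against 2.24 and 2.17, P3h2 at 8.68 against 3.16 and 3.45, and in that list 7 of 18 genes were higher in MIN6 and 2 in islets, against 11.5% and 13.1% of all genes.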

How the data were processed

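Expression was measured on 6 arrays. The deposited table holds log2 probe set intensities, made by the authors with GCRMA (affy package), per the submitters' processing notes; versions, and whether other arrays were normalized with these, are not given in the sources used here. The scanner files were not used, and the number of arrays limits the precision. Of 45101 probe sets, 34958 carried 1 symbol in the platform annotation, 932 several and 9211 none. The brightest probe set across the 6 arrays stood for each gene. Genes below a mean of 4 in the compared system were left out, except between systems. Limma 3.58.1 (R 4.3.3) was fitted to all genes with Benjamini-Hochberg adjustment at 0.05: pooled miR-7 against AdGFP (2 residual degrees of freedom), a mean per vector (1) and islets against MIN6 (4). The lone AdGFP array is assumed to vary like the others. Nothing says that the AdmiR7a cultures were separate, so p-values may measure technical spread alone. Single-array comparisons used a log2 size of 1. "At least" folds are taken against a level of 4. The code of the fits was tried on simulated data with larger planted differences than those of the 7 genes called in MIN6. The simulation had independent noise and no background floor, so it cannot tell how a shift of the lone AdGFP array would act. Lists held matrix partners, collagen folding and crosslinking, proteases, adhesion machinery, other receptors and cell markers. The genes, lists and tests were chosen with earlier results of these data known. Genes were named when called or past the size, when among the highest in a system, or as chains of fixed partners. Averaging probe sets, choosing the probe set per system, quantile normalization, other filters, a trend and leaving out arrays were tried.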

Additional observations from a re-analysis of the deposited data

How the results depend on the processing

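Of 49 alternative counts, 37 stayed within 1.5 times the reported count, and no called gene reversed under an alternative. In the pooled comparison, 7 genes called became 4 with no filter on level, of which 1 was among the 7 (943 of all genes, in place of 2713) and 0 to 0 without each miR-7 array in turn (0 of all genes). With AdmiR7a alone, 0 became 5 with averaged probe sets, 7 with quantile normalization, 1 with no filter and 6 with a mean level of at least 6 (967, 2261, 323 and 1744 of all genes, in place of 0). With AdmiR7b, 6 genes past the size became 10 at a size of 0.58 and 0 in a limma contrast that borrows the AdmiR7a spread (848 of all genes became 2430 and 0). In islets, 6 became 3 with a mean level of at least 6 (300 of all genes became 155, and 183 with averaged probe sets). With averaged probe sets Lamb1 was below the filter and not tested. Between systems, the 19 calls ranged from 15 to 18 without each array in turn. Of the 14 genes of the matrix, folding, adhesion and receptor lists called with miR-7, 2 were called with no filter, an alternative chosen after seeing the data. The cause was not tested. No paired analysis was possible because replicate numbers are given for AdmiR7a only. Values near 2.17 are limited by background and bound the differences of genes that reach 4 in 1 system.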
